A study of Oryza sativa Japonica Group with 38 samples.

Results

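The spliced XLOC long noncoding RNAs (lncRNAs) of rice (Oryza sativa, japonica) are assembled loci whose longest transcript holds at least 1 intron. They were taken from the authors' list of assembled loci, which carry XLOC identifiers, as the genes whose longest transcript had at least 2 exons, and without loci that have another XLOC gene at the same start and end on the other strand. This gave 283 of the 3509 XLOC genes, and of 7231 genes in the assembled and annotated lists together. Of the other XLOC genes, 3104 had a longest transcript of 1 exon and 122 were mirrored on both strands, 3 of them spliced. A further 17 of the unspliced genes had a shorter transcript with an intron and were not counted as members.

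Plant lncRNAs are mostly made by RNA polymerase II, so they can be capped, spliced and given a poly(A) tail like messenger RNA. Spliced and polyadenylated transcripts are usually exported to the cytoplasm, whereas RNAs that keep introns or lack a tail are often held in the nucleus. Plant lncRNAs are known for low levels and for expression limited to certain tissues or stresses. The files pair the XLOC identifiers with no gene name, so the members are described by position, structure and level.

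The study looked at rice lncRNAs under stress and at the kind of RNA that holds them. Seedlings 2 weeks old were used, raised under a day of 12 h at 28 °C and a night of 12 h at 22 °C. They were untreated, chilled at 4 °C (cold), dried in air (drought), held at 50 °C (heat), lit at 50000 lux (high light) or given NaCl at 300 mM (high salt). Untreated leaves, roots and panicles were collected too, and their labels also give an age of 2 weeks, panicles included. Whole cell RNA was split into poly(A)+ RNA, held by oligo(dT) beads, and poly(A)- RNA, and nuclear total RNA and small RNA were sequenced beside them. Since the nuclear RNA was not selected for a tail, nuclear location and the lack of poly(A) selection cannot be told apart when it is compared with poly(A)+ RNA. Each group had 1 column of values; drought had 2 libraries each of poly(A)+ and poly(A)- RNA behind 1 column, and whether it holds a single library or a pool was not stated.

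Values are FPKM, fragments per kilobase of exon, scaled to the reads of the library. The 23 long RNA libraries used held between 24.6 and 105.3 M reads (M, 1e6), while depth ran from 39.7 to 85.8 M in the 9 libraries of small RNA. Depth was read from the size of the smallest step between values, so each is the lowest depth that makes all values whole reads. The lowest, untreated nuclear RNA, would be higher, and its intervals narrower, only if every gene had an even read count there. Listed lncRNAs made up 0.454% to 3.41% of each long RNA library's reads, and the spliced XLOC genes 5.06% to 23.5% of those. In small RNA they took 0.592% to 2.55% of the listed reads. Separate cultures are not stated by any label. The p-values therefore cover only the spread among these samples of different conditions, part of which may be technical, and not that among replicate cultures. In these bulk samples, fewer cells of a type and less RNA per cell cannot be told apart.

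Most members had a single, short intron. The longest transcript had 2 exons in 220 genes (77.7%), 3 in 37, 4 in 8, 5 in 6, 6 in 6 and 7 in 4. The remaining genes were XLOC_006856 with 10 exons and XLOC_006321 with 13. The 417 introns had a median length of 183 nt with an interquartile range of 100 to 591 nt, and ran from 54 to 10723 nt. Of these introns, 104 were under 100 nt. In 75 members the introns were longer in sum than the exons.

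**Figure D1:**
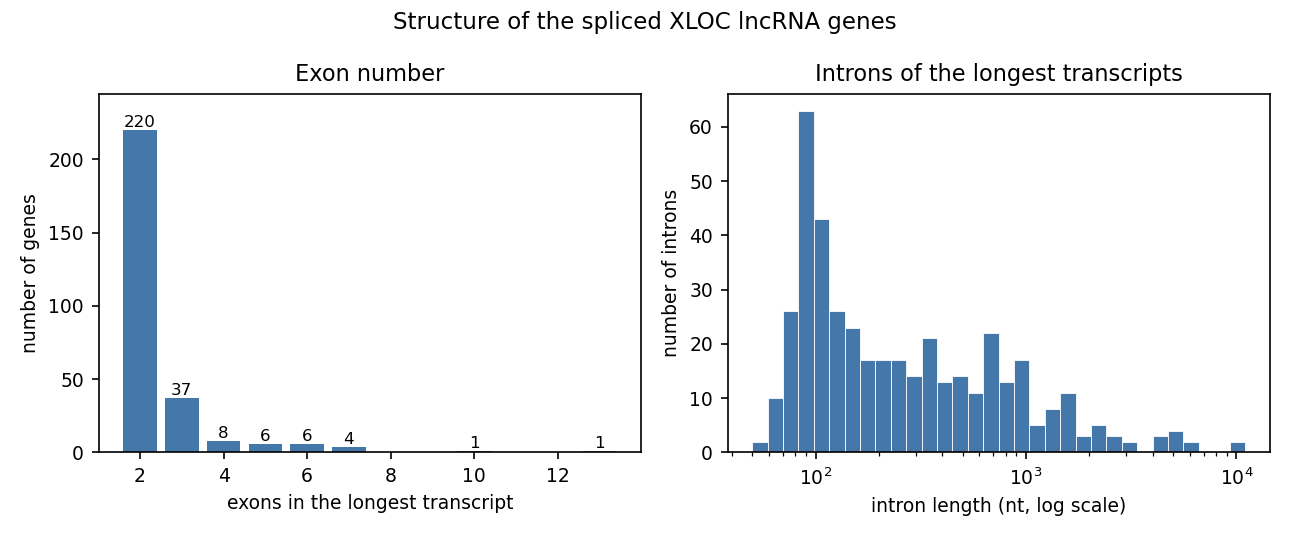
Left, number of spliced XLOC genes by the number of exons of the longest transcript. Right, number of introns by length in nt on a log axis; 220 of 283 genes had 2 exons, and the introns ran from 54 to 10723 nt around a median of 183 nt.

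The exons of the longest transcript summed to a median of 800 nt (interquartile range 516 to 1298.5), against 527.5 nt in the 3104 unspliced XLOC genes and 779.5 nt in the 914 spliced genes of the annotated list with RAP identifiers. Their introns were also alike in the median, 183 nt against 191 nt in the spliced RAP genes. The genomic span had a median of 1361 nt in the members and 1897 nt in the spliced RAP genes. Several transcripts were listed for 56 members (19.8%), against 18 unspliced XLOC genes (0.58%) and 2 spliced RAP genes (0.219%). Members were chosen by having an intron, so the contrast with unspliced genes may follow in part from that choice. All transcripts of a gene carried the same value, computed over their merged exons, so the data do not part isoforms. The longest spans belonged to XLOC_062698 on chromosome 5 (20246295 to 20257434, plus strand), with 416 nt of exon around an intron of 10723 nt, to XLOC_069757 on chromosome 6 and to XLOC_006321 on chromosome 1. Members lay on all 12 chromosomes, from 13 on chromosome 12 to 33 on chromosome 4, with 127 on the plus strand and 156 on the minus strand.

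The authors' deposited classes put 181 members (64.0%) in the poly(A)+ class, 73 (25.8%) in the class of both kinds, 18 (6.36%) in the poly(A)- class and 11 (3.89%) in the low class. The same classes held 67.2%, 25.9%, 6.44% and 0.451% of the unspliced XLOC genes. By location, 207 members (73.1%) were classed as cytosolic, 35 (12.4%) as nuclear, 22 (7.77%) as both and 19 (6.71%) as low. Nuclear genes were 12.0% of the unspliced XLOC and 3.72% of the spliced RAP genes.

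Most members were expressed at a low level, and chiefly in poly(A)+ RNA. Of the 283 genes, 204 (72.1%) reached 1 FPKM in at least 1 of the 23 long RNA libraries, against 56.0% of all 7231 listed genes. Among the groups most like them, 82.8% of unspliced XLOC and 70.9% of spliced RAP genes did, so the members did not stand out. At 0 in all of these libraries were 12 members and 1498 of all listed genes. So were 46 of the 3104 unspliced XLOC and 19 of the 914 spliced RAP genes. In poly(A)+ RNA 201 (71.02%) reached 1 FPKM in some condition and 51 (18.02%) in all 7. Of all listed genes, 52.6% and 15.4% did. In poly(A)- RNA 59 members (20.8%) reached 1 FPKM in some condition, and in nuclear RNA 46 (16.3%). Here the shares of all listed genes were 20.9% and 15.05%, so the low shares in these kinds are no trait of the members. In the same order, the shares were 76.6%, 20.2%, 26.8% and 20.8% in unspliced XLOC genes. In spliced RAP genes they were 70.7%, 31.1%, 32.3% and 23.96%. The mean over the 7 poly(A)+ libraries had a median of 0.614 FPKM over all members, against 1.07 FPKM in unspliced XLOC and 1.97 FPKM in spliced RAP genes. Members of 2 exons had a median mean level of 0.768 FPKM and a highest one of 173 FPKM. The 63 members of 3 or more exons had a median of 0.55 FPKM and a highest one of 4.21 FPKM.

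In poly(A)- and nuclear RNA a few members held most of the member reads, and in poly(A)+ RNA a large share. In each poly(A)+ library the 5 most abundant members took 37.3% to 67.1% of all reads of spliced XLOC genes. In poly(A)- RNA the 5 most abundant took 92.7% to 98.2%, and in nuclear RNA 85.5% to 97.1%. The gene XLOC_015085 alone took 66.2% to 90.9% of the member reads in poly(A)- RNA and 74.5% to 93.7% in nuclear RNA, but 5.89% to 39.4% in poly(A)+ RNA. Sums over the members therefore mainly follow this 1 gene outside poly(A)+ RNA.

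By mean over the 7 poly(A)+ libraries, XLOC_061455 was the most abundant member; it lies on chromosome 5 (7746587 to 7748350, plus strand; 2 exons). It stood at 244 FPKM in untreated seedlings, 218 in cold, 107 in drought, 257 in heat, 325 in high light, 42.2 in high salt and 17.2 in roots. Roots were lowest, and the high salt library was the lowest of the seedlings. XLOC_034195 on chromosome 2 (20165461 to 20166751, plus strand) had the opposite root level. Its poly(A)+ values were 60.3 FPKM untreated, 61.0 in cold, 52.0 in drought, 39.3 in heat, 45.1 in high light, 25 in high salt and 370 in roots. XLOC_015714 on chromosome 10 (9315422 to 9316521, minus strand) ranged from 66.1 to 113 FPKM over the 6 seedling libraries and stood at 13.1 FPKM in roots. XLOC_041804 on chromosome 3 was high in most seedling libraries and nearly absent from roots. It had 71.3 FPKM untreated, 52.4 in cold, 61.8 in drought, 11.8 in heat, 71.5 in high light, 7.16 in high salt and 0.268 in roots. XLOC_083130 on chromosome 7 ranged from 21.6 FPKM in high salt to 88.9 in roots. The range of XLOC_055185 on chromosome 4 was from 14.4 FPKM in high salt to 65.9 in cold.

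Roots held the highest poly(A)+ value of more members than any other condition. Among the 201 members of at least 1 FPKM, the highest value was in roots for 70 (34.8%), in untreated seedlings for 39 (19.4%), in heat for 34 (16.9%), in cold for 28 (13.9%), in drought for 15 (7.46%), in high light for 14 (6.97%) and in high salt for 1 (0.498%). Over all 3807 listed genes of at least 1 FPKM the share peaking in roots was 27.1%, over unspliced XLOC genes 24.3% and over spliced RAP genes 37.6%. The highest value was at least 2-fold above the next for 34 members (16.9%, against 13.6% of all listed genes), and 18 of these peaked in roots (8.96% against 4.6%). Each condition is 1 library, so these counts carry no replicate error.

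**Figure D2:**
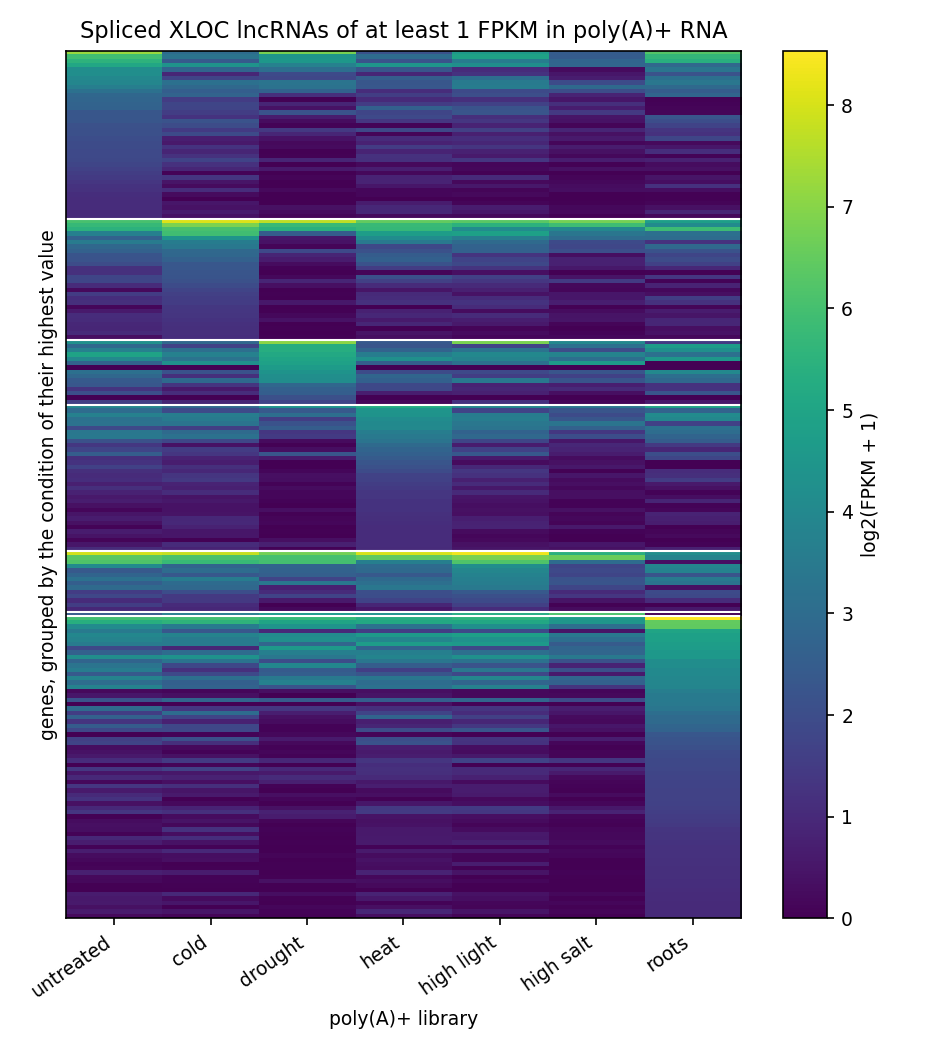
Levels of the 201 spliced XLOC genes that reached 1 FPKM in poly(A)+ RNA, as log2(FPKM + 1) by colour, with 1 row per gene and 1 column per library, grouped by the condition of the highest value (white lines). The group of 70 genes that peaked in roots is the largest, and 1 gene peaked in high salt.

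In the comparison of RNA kinds, poly(A)- levels of spliced XLOC lncRNAs were mostly below their poly(A)+ levels. Each level is scaled to the reads of its own library, so the comparison does not give the share of a transcript that carries a tail. The 7 conditions served as repeats, with condition as a block, and the test was limma on log2(FPKM + 1) over all genes of both lists, with a Benjamini-Hochberg adjusted p of 0.05 and at least 2-fold as the threshold. Variances were drawn toward a trend over all tested genes, which weighed as a median of 187 degrees of freedom. A gene's own values gave 6, so its p-value rests mainly on that trend. Only genes of at least 1 FPKM in 3 of the tested libraries entered, which left 122 of the 283 members. Of these, 88 (72.1%) were lower in poly(A)- RNA, where 74.5% of all tested genes were called lower. Another 3 members (2.46%) were higher, where 4.2% of all tested genes were called higher, and 31 passed in neither direction. The median log2 difference was -1.44 in members and -1.51 over all 2859 tested genes. After each library was centred on its own median, 10 members were called higher and 17 lower (8.57% and 16.5% of all tested genes), so the split of directions depends on the scaling between RNA kinds.

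The counts by exon number were not tested against each other. Among 106 tested members of 2 exons 81 were called lower (76.4%), with a median log2 difference of -1.70. Among 16 tested members of 3 or more exons 7 were called lower (43.8%), with a median of -0.96. These 16 genes were also less abundant, with a median mean level of 1.45 FPKM in poly(A)+ RNA against 6.11 FPKM for the 106, and log2(FPKM + 1) understates differences of low genes. The part of level in these counts was not tested.

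The 6 lower members with the smallest adjusted p were abundant in poly(A)+ RNA. XLOC_055185 had a mean of 0.935 ± 0.336 FPKM in poly(A)- RNA and 41.4 ± 19.5 FPKM in poly(A)+ RNA (SD over 7 conditions), a log2 difference of -4.30 ± 0.42 (SE; limma adjusted p = 2.4e-17). For XLOC_061455 the means were 6.91 ± 5.32 and 173 ± 118 FPKM, which differ by -4.27 ± 0.48 in log2 (limma adjusted p = 3.8e-14). XLOC_034195 was also lower, at 3.6 ± 3.44 beside 93.2 ± 123 FPKM, which is -4.01 ± 0.45 in log2 (2.1e-14 as the limma adjusted p). XLOC_041804, XLOC_083130 and XLOC_015714 differed by -3.87, -3.87 and -3.85 on the same scale. All 6 genes were lower in poly(A)- RNA in 7 of 7 conditions, which the rule for naming them required. Over the 122 tested members, 77 were called lower with the same sign in all 7 conditions (63.1%, against 64.2% of all tested genes).

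**Figure D3:**
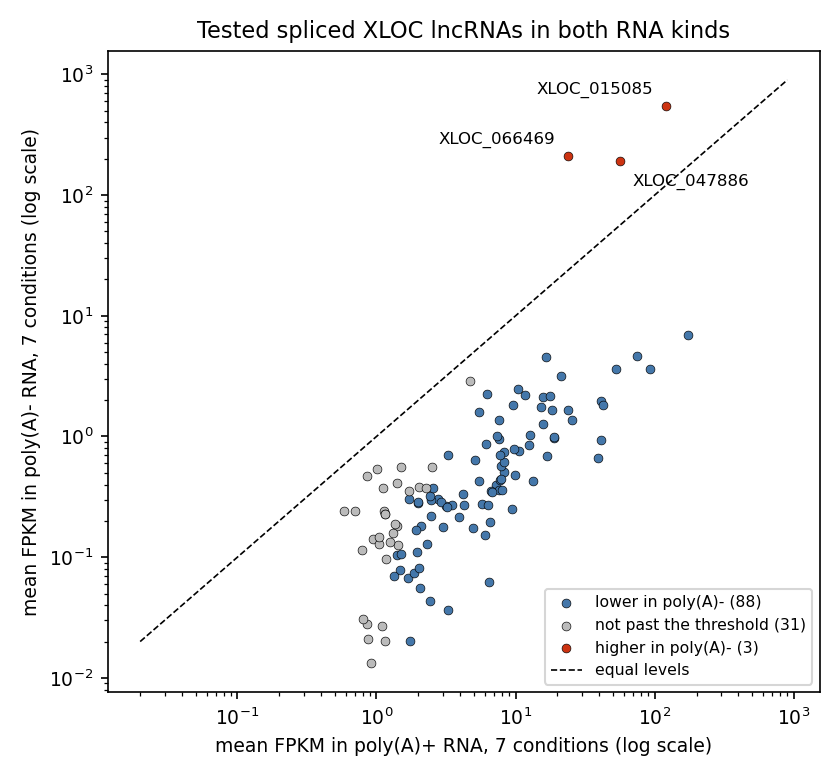
Mean FPKM of the 122 tested spliced XLOC genes in poly(A)+ RNA (horizontal) and poly(A)- RNA (vertical) over 7 conditions, on log axes, coloured by the limma call, with a dashed line of equal levels. The 3 genes called higher in poly(A)- RNA, have means of 192 to 547 FPKM there and lie above the dashed line, with the 88 called lower below it.

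The 3 members higher in poly(A)- RNA were XLOC_066469, XLOC_015085 and XLOC_047886, all of 2 exons. XLOC_066469 lies on chromosome 5 (20973828 to 20974930, minus strand), has an intron of 60 nt, and carries the authors' classes poly(A)- and nucleus. Its poly(A)- values were 172 FPKM untreated, 316 in cold, 155 in drought, 59.2 in heat, 290 in high light, 481 in high salt and 1.84 in roots, with 159 in leaves. Its poly(A)+ values in the first 7 conditions were 4.50, 11.6, 24.1, 19.7, 37.1, 69.5 and 0.00911 FPKM. Poly(A)- was above poly(A)+ RNA in every condition, with a log2 difference of 3.0 ± 0.50 (SE; limma adjusted p = 2.9e-08). Roots stood far below all other conditions in both kinds, with 1 read behind the poly(A)+ value.

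XLOC_015085 lies on chromosome 10 (2755797 to 2759729, minus strand), and the authors classed it as of both kinds and nuclear. It is a member through an intron of 131 nt in its longest transcript, and the exons of its other transcript cover that intron. Its poly(A)- values were 228 FPKM untreated, 371 in cold, 473 in drought, 582 in heat, 434 in high light, 423 in high salt, 1317 in roots and 319 in leaves. Its poly(A)+ values in the first 7 conditions were 64.8, 271, 207, 88.8, 81.1, 107 and 26.9 FPKM. The difference was 2.30 ± 0.58 on the log2 scale (SE; limma adjusted p = 0.00014), with poly(A)- RNA higher in 7 of 7 conditions.

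XLOC_047886 lies on chromosome 3 (10133944 to 10134721, minus strand) with an intron of 90 nt and the same classes as XLOC_015085. Its mean was 192 ± 153 FPKM in the poly(A)- and 56.1 ± 29.5 FPKM in the poly(A)+ libraries (SD, 7 conditions), with a difference of 1.67 ± 0.54 in log2 (SE; limma adjusted p = 0.0024), and poly(A)- RNA was higher in 7 of 7 conditions. An unspliced XLOC gene, XLOC_043005, overlaps 664 nt of its exons on the other strand and had a mean of 154 FPKM in poly(A)+ RNA. The library protocol keeps the strand, and the sources used here do not state whether the counting did. The reads of these partners differed by more than counting error in all 23 libraries compared. Over the long RNA libraries the highest value was 1316 FPKM for XLOC_043005 and 532 FPKM for XLOC_047886. Unequal reads do not tell how reads of the overlap were assigned, and this was not tested, so the values of XLOC_047886 are uncertain.

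**Figure D4:**
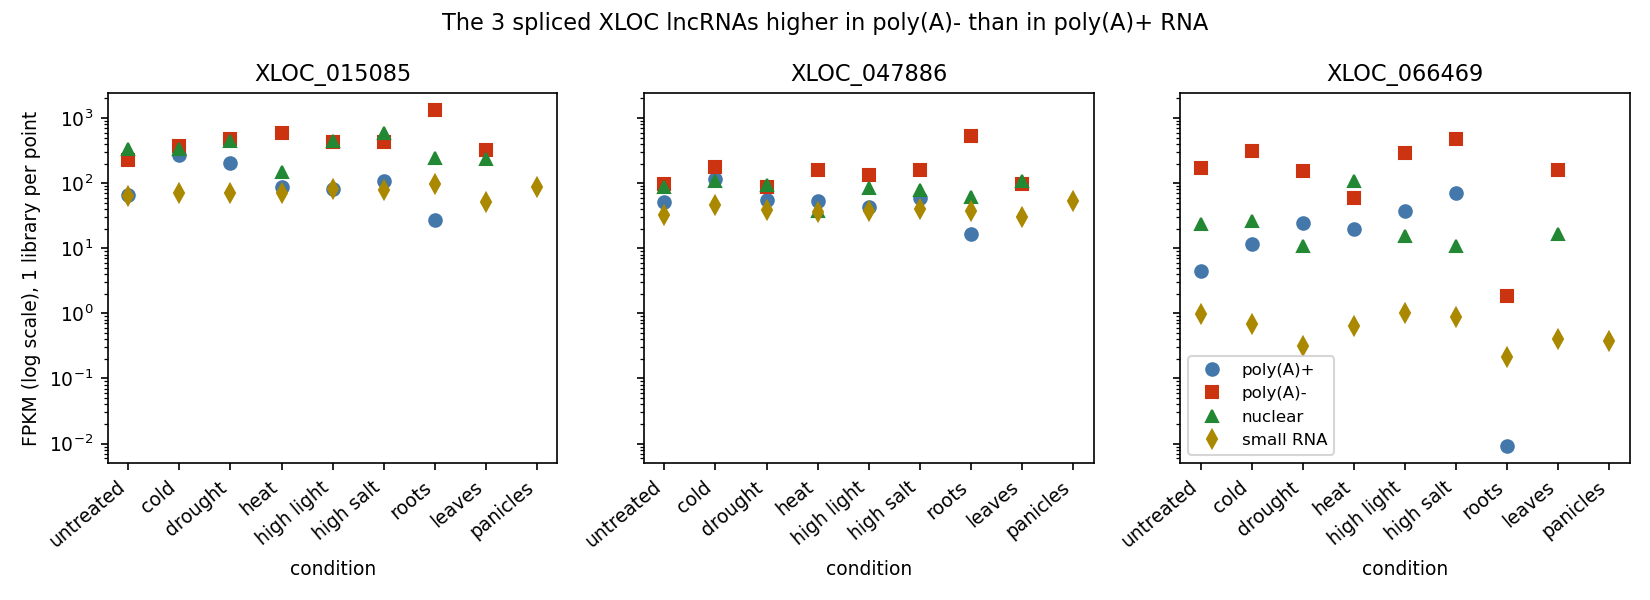
FPKM on a log axis of XLOC_015085, XLOC_047886 and XLOC_066469 in each library, by condition (horizontal) and kind of RNA (colour and shape), with 1 library per point and values of 0 not drawn. In roots, XLOC_015085 and XLOC_047886 had their highest poly(A)- and lowest poly(A)+ values, while XLOC_066469 was near 0.

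Against poly(A)+ RNA, nuclear RNA gave a like picture. Of 122 tested members 92 (75.4%) were lower in nuclear RNA, where 79.2% of all tested genes were called lower. The 1 member called higher was XLOC_015085, where 1.26% of all tested genes were called higher. The median log2 difference was -1.61 in members and -1.69 over all 2786 tested genes. Centred on library medians, 17 members were higher and 25 lower (10.3% and 19.2% of all tested genes).

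In nuclear RNA XLOC_015085 had 330 FPKM untreated, 330 in cold, 450 in drought, 147 in heat, 438 in high light, 584 in high salt, 248 in roots and 236 in leaves. It exceeded poly(A)+ RNA by 1.78 ± 0.46 on the log2 scale (SE; limma adjusted p = 0.00067), in 7 of 7 conditions. XLOC_047886 and XLOC_066469 did not pass, at 0.59 ± 0.42 and 0.12 ± 0.48 (limma adjusted p = 0.172 and 0.811). The smallest adjusted p among lower members belonged to XLOC_015714, whose nuclear mean was 0.64 ± 0.376 FPKM beside 74.3 ± 31.5 FPKM for poly(A)+ RNA (SD over 7 conditions), or -5.34 ± 0.38 on the log2 scale (limma adjusted p = 4.2e-12). Next by adjusted p, XLOC_055185, XLOC_083130, XLOC_034195, XLOC_067072 and XLOC_001354 differed by -4.68, -4.60, -4.64, -3.99 and -3.84.

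Nuclear and poly(A)- RNA differed less. With leaves there were 8 conditions, and 37 members entered the limma test. None was higher at the threshold (1 at an unadjusted p under 0.05), where 0.938% of all tested genes were called higher. Lower in nuclear RNA were 5 members (13.5%): XLOC_066469, XLOC_010147, XLOC_059947, XLOC_075458 and XLOC_015714, where 16.8% of all tested genes were called lower. The median log2 difference was -0.45 in members and -0.48 over all 959 genes. With centred libraries 1 member was higher and 1 lower (3.96% and 7.61% of all tested genes). The count of 5 was unstable, at 0 without a filter on low values, 11 with a pseudocount of 0.1 and 3 without either the high light or the high salt libraries.

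The largest of these differences was that of XLOC_066469. Its nuclear values were 23.7 FPKM untreated, 26.4 in cold, 10.9 in drought, 109 in heat, 15.6 in high light, 10.8 in high salt, 0 in roots and 16.7 in leaves, against 1.84 to 481 FPKM in poly(A)- RNA. Nuclear RNA was lower in 7 of 8 conditions and higher in heat, with a log2 difference of -2.92 ± 0.66 (SE; limma adjusted p = 0.00026). XLOC_015714 differed by -1.36 ± 0.36 (limma adjusted p = 0.0019) and XLOC_059947 by -1.02 ± 0.26 (limma adjusted p = 0.001). Both were named because they were called and were lower in 8 of 8 conditions. Without the filter on low values their differences were the same and their limma adjusted p rose to 0.0823 and 0.0976, and with centred libraries the differences were -0.94 and -0.60. XLOC_059947 also lost it without drought, high light or high salt, its 3 highest poly(A)- conditions, at -0.84, -0.82 and -0.95.

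Stresses were compared with untreated seedlings by size alone, since each group has 1 column: at least 2-fold on the scale of log2(FPKM + 1) with 1 FPKM or more in either column. Differences given on the log2 scale are of log2(FPKM + 1), whereas fold values are ratios of FPKM without the added 1. They do not convert into each other, and for low values the log2 difference is the smaller. All stresses share the same untreated libraries. Intervals are exact 95% Poisson intervals on the reads behind a value and cover counting error only.

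In cold, 11 of the 150 members at 1 FPKM in poly(A)+ RNA were higher and 26 were lower, where 6.06% and 15.2% of all genes at 1 FPKM were. After centring, 13 were higher and 21 lower (8.74% and 11.5% of all genes). The median log2 difference was -0.28 in members and -0.14 over all genes. The largest difference upward was that of XLOC_093772 on chromosome 9 (20884841 to 20889839, plus strand), a 4906 nt transcript with 1 intron of 92 nt. It was at 59.5 FPKM (58.8 to 60.2) in cold and 12.2 FPKM (11.8 to 12.5) untreated, and it was also higher in poly(A)- RNA (12.1 against 0.515 FPKM) and nuclear RNA (3.24 against 0.448 FPKM). XLOC_015085 was 4.18-fold higher, and XLOC_089260 and XLOC_084395 were 3.84-fold and 3.28-fold higher. The largest difference downward was that of XLOC_047053 on chromosome 3 (4249539 to 4250108, minus strand), at 7.11 FPKM (6.37 to 7.90) in cold and 148 FPKM (144 to 152) untreated. It was lower in all 3 kinds, by 7.87-fold in poly(A)- and 7.70-fold in nuclear RNA. XLOC_054747, XLOC_032555 and XLOC_004633 were 20.3-fold, 10.1-fold and 6.89-fold lower in poly(A)+ RNA. Of 15 members at 1 FPKM in all 3 kinds, XLOC_093772 was the 1 higher and XLOC_047053 the 1 lower in all of them, where 0.341% and 1.37% of all such genes were.

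In drought, most of the members that passed the size rule were lower. Of 143 members 14 were higher and 67 lower, where 7.13% and 51.4% of all genes were. The medians were -0.91 in members and -1.02 over all genes, and after centring on the latter 32 members were higher and 11 lower (20.1% and 13.9% of all genes), so the direction of the split flips with the scaling. XLOC_013194 on chromosome 10 (11758086 to 11759783, plus strand; 4 exons) was at 24.8 FPKM (23.7 to 25.8) in drought, at 0.00910 FPKM untreated and 0.00661 FPKM in cold (1 read each), and at 0 in heat, high light, high salt and roots. Its other drought values were 0.582 FPKM in poly(A)- and 0.0136 FPKM in nuclear RNA. XLOC_059947 on chromosome 4 (35337075 to 35338397, minus strand) was at 132 FPKM (129 to 134) in drought and 18.7 FPKM (17.8 to 19.6) untreated. XLOC_031804 and XLOC_009673 were 9.14-fold and 6.05-fold higher, and both were also high in roots, at 25.1 and 25.5 FPKM. Among the lower genes, XLOC_010123 stood at 0.330 FPKM (0.219 to 0.477) against 10.8 FPKM (10.2 to 11.5) untreated, and XLOC_089245 at 0.0308 FPKM (0.0124 to 0.0634) against 5.96 FPKM (5.68 to 6.25). XLOC_075458 and XLOC_037290 were lower by 2.75 and 2.54 on the log2 scale.

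In heat, 16 of 158 members were higher and 35 lower, where 12.6% and 16.1% of all genes were. The medians were -0.06 and -0.02. XLOC_047053 was lowest here, at 3.40 FPKM (2.82 to 4.06). XLOC_032555, XLOC_054747 and XLOC_004633 were lower by 3.36, 3.31 and 2.90 on the log2 scale. XLOC_006010 on chromosome 1 was at 15.2 FPKM (14.4 to 16.1) in heat and 2.71 FPKM (2.36 to 3.09) untreated. XLOC_066469, XLOC_002532 and XLOC_089260 were 4.39-fold, 4.25-fold and 3.12-fold higher.

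In high light, 8 of 146 members were higher and 35 lower, where 6.35% and 18% of all genes were, with medians of -0.41 and -0.19. After centring, 14 were higher and 20 lower (9.67% and 12.9% of all genes). XLOC_059947 was again high, at 111 FPKM (108 to 114), close to its drought level. XLOC_066469 was 8.25-fold higher, XLOC_020499 on chromosome 11 was 3.37-fold higher and XLOC_006010 3.19-fold higher. XLOC_026610 on chromosome 12 stood at 1.09 FPKM (0.665 to 1.68) against 17.8 FPKM (16.2 to 19.4) untreated. XLOC_054747, XLOC_047053 and XLOC_032555 were 12.9-fold, 6.25-fold and 3.93-fold lower.

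In high salt, 2 of 140 members were higher and 76 lower, where 4.2% and 61.4% of all genes were. The medians were -1.09 and -1.17, and after centring 12 members were higher and 16 lower (11% and 11.9% of all genes). The genes higher without centring were XLOC_066469, at 69.5 FPKM (67.5 to 71.6) against 4.50 FPKM (4.04 to 4.99), and XLOC_084395 on chromosome 8, at 24 FPKM (22.8 to 25.3) against 5.53 FPKM untreated. XLOC_084395 was also at 28.8 FPKM in drought and 18.2 FPKM in cold, and at 0.0197 FPKM in roots. XLOC_047053 was at 4.56 FPKM (3.82 to 5.41) and XLOC_026610 at 0.178 FPKM (0.0486 to 0.456). XLOC_054747 and XLOC_004633 were lower by 3.70 and 3.44 on the log2 scale. No member passed the size rule in 1 direction in all 3 kinds of RNA in drought (of 11 at 1 FPKM in each), heat (13), high light (12) or high salt (12). After centring, 1 member, XLOC_047053, was lower in all 3 kinds in high light. Of all such genes, drought had 1.62% higher and 6.49% lower, heat 3.19% and 0%, high light 0% and 0.341%, and high salt 0.292% and 0%.

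**Figure D5:**
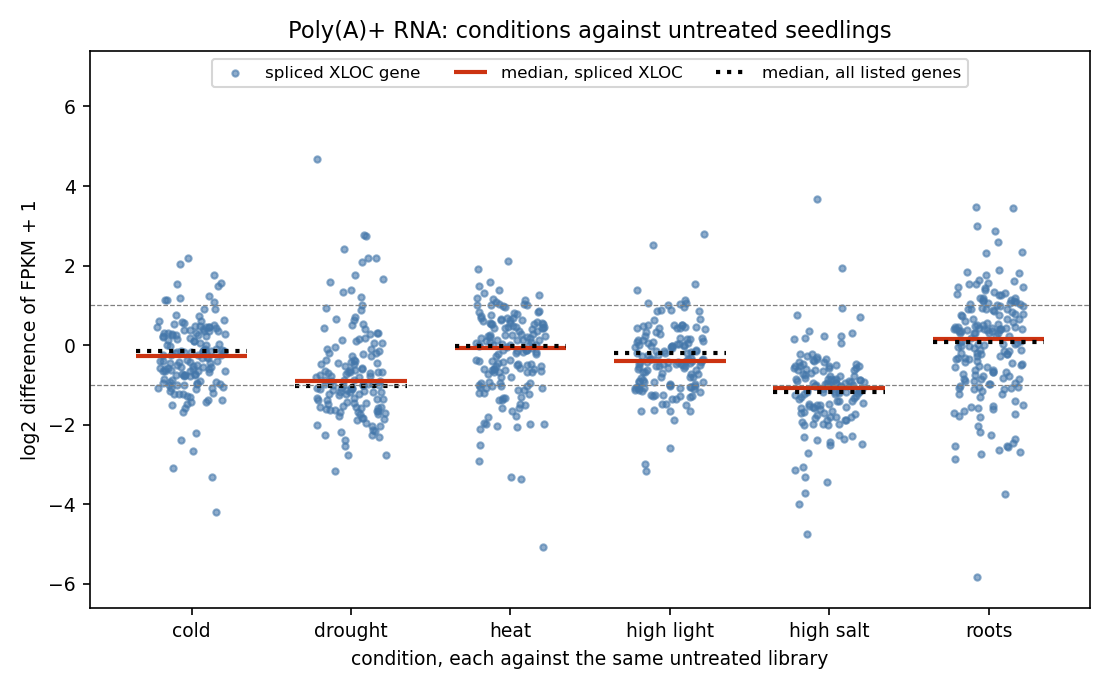
Log2 difference of FPKM + 1 in poly(A)+ RNA between each condition and untreated seedlings, with 1 point per spliced XLOC gene of at least 1 FPKM in one of the libraries. Red lines are member medians, dotted black lines the medians of all listed genes and dashed grey lines the 2-fold bounds; in drought and high salt both medians lie near -1.

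XLOC_047053, XLOC_032555 and XLOC_004633 were highest untreated and had their lowest poly(A)+ values in cold, heat and high salt, while the order of drought, roots and high light differed between them. XLOC_047053 had 148 FPKM untreated, 109 in drought and 75.3 in roots, but 23.7 in high light and at most 7.11 in cold, heat and high salt. XLOC_004633 on chromosome 1 (35781545 to 35782340, plus strand) had 59.6 FPKM untreated, 20.8 in drought, 49.4 in roots and 28.9 in high light, and at most 8.65 in cold, heat and high salt. XLOC_032555 on chromosome 2 (6145851 to 6146743, plus strand) had 44.3, 21.9, 40.9 and 11.3 FPKM in the same 4 conditions and at most 5.93 FPKM in the other 3. These genes were picked for their differences from the same untreated library, so this is a description.

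Roots differed from untreated seedlings in both directions about equally. In poly(A)+ RNA 38 of 178 members were higher and 36 lower, where 15.7% and 18.2% of all genes were, with medians of 0.14 and 0.085, and after centring 33 were higher and 39 lower (13.3% and 19.9% of all genes). The largest difference upward was that of XLOC_037289, at 11.7 FPKM (10.9 to 12.4) against 0.150 FPKM (0.0686 to 0.285). Next was XLOC_087853, at 9.84 FPKM (8.82 to 10.9) against 0 reads untreated. Its root value was 80.8 times the floor of 3 reads in the untreated library. XLOC_032576 was 24.3-fold and XLOC_031804 9.76-fold higher. XLOC_041804 stood lowest against untreated seedlings, at 0.268 FPKM (0.193 to 0.362) against 71.3 FPKM (69.7 to 72.9). XLOC_061455 and XLOC_059947 were 14.2-fold and 10.9-fold lower, and XLOC_089245 was at 0.0442 FPKM (0.0262 to 0.0699).

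Of 13 members at 1 FPKM in all 3 kinds, 1 was higher and 2 were lower in roots in each kind, where 6.06% and 7.2% of all such genes were. XLOC_034195 was 6.13-fold higher in poly(A)+, 17.2-fold in poly(A)- and 4.39-fold in nuclear RNA. XLOC_061455 was lower by 14.2-fold, 5.61-fold and 2.65-fold, and its nuclear difference did not pass after centring. XLOC_066469 was lower in all kinds, at 1 read in poly(A)+ RNA, 1.84 FPKM in poly(A)- RNA and 0 reads in nuclear RNA, where the floor of 3 reads is 0.0546 FPKM.

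Against leaves, roots had more higher members in poly(A)- RNA and more lower members in nuclear RNA. In poly(A)- RNA 16 of 38 members were higher and 6 lower, where 38.3% and 15.6% of all genes were. In nuclear RNA 2 of 43 were higher and 26 lower, where 1.62% and 46.5% of all genes were. Median log2 differences were 0.72 in members and over all genes in poly(A)- RNA, and -1.11 and -0.96 in nuclear RNA. After centring the counts were 3 and 12 in poly(A)- RNA (8.7% and 23.8% of all genes) and 3 and 7 in nuclear RNA (4.62% and 10.2%), so in poly(A)- RNA the direction of the split flips with the scaling. XLOC_034195 was at 11.1 FPKM (10.2 to 12.0) in roots and 0.0413 FPKM (0.0112 to 0.106) in leaves in poly(A)- RNA, and 3.65-fold higher in nuclear RNA. XLOC_047886 and XLOC_015085 were 5.47-fold and 4.13-fold higher in root poly(A)- RNA, and XLOC_062698 was 2.48-fold higher in nuclear RNA. Lower in roots were XLOC_066469 and XLOC_015714 in both kinds. XLOC_056510 had 0 reads in root poly(A)- RNA against 2.15 FPKM in leaves, and XLOC_004633 and XLOC_079855 were 10.8-fold and 17-fold lower in nuclear RNA.

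In small RNA most members stayed below 1 FPKM. Of the 283 genes 17 (6.01%) reached 1 FPKM in at least 1 of the 9 libraries. This share was 18.9% over all listed genes, 8.6% in unspliced XLOC and 2.63% in spliced RAP genes. At 0 in all 9 were 32 members (11.3%), against 19.2% of all listed, 28.0% of unspliced XLOC and 22.6% of spliced RAP genes. XLOC_015085 was highest, from 51.2 FPKM in leaves to 96.1 in roots with a median of 71.5. XLOC_047886 was lowest in leaves and highest in panicles, at 52.4 FPKM. These levels varied less over conditions than in the long RNA kinds, where XLOC_015085 spanned 26.9 to 271 FPKM in poly(A)+ RNA. By mean over the 9 libraries XLOC_021089, XLOC_062155 and XLOC_056533 were next, with highest values of 4.48, 2.84 and 2.31 FPKM, each in untreated seedlings, and XLOC_021089 reached at most 0.349 FPKM in poly(A)+ RNA.

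Some members share their place with other listed loci. On the opposite strand 29 members overlapped a listed locus, and 7 overlapped one on the same strand. XLOC_044205 and XLOC_049039 on chromosome 3 are both members and share 1032 nt of exon. Their poly(A)+ levels were 2.35 and 5.25 FPKM untreated, 3.49 and 5.80 in heat, 3.57 and 6.80 in roots, and 0.119 and 0.195 in high salt. Both were highest in roots, next highest in heat and lowest in high salt, and their reads were within counting error of equal in 5 of 8 libraries of at least 40 reads. XLOC_066970 and its unspliced partner were within counting error in 8 of 12 such libraries, XLOC_001756 in 3 of 5 and XLOC_069014 in 2 of 5. How reads from such overlaps were assigned was not stated, so single values of these genes are uncertain.

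The 5 members with most exons stayed below 7 FPKM in poly(A)+ RNA. XLOC_006321 on chromosome 1 (4458880 to 4467659, minus strand) ranged from 0.259 FPKM in high salt to 6.21 in cold in poly(A)+ RNA, with a median of 2.48. XLOC_006856, also on chromosome 1 (8258340 to 8263596, minus strand), ranged from 0.219 FPKM in high salt to 4.51 in heat, with a median of 0.778. XLOC_061664, XLOC_036041 and XLOC_088187, of 7 exons each, had highest poly(A)+ values of 2.45 FPKM in untreated seedlings, 1.24 FPKM in roots and 3.6 FPKM in roots.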

How the data were processed

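The authors deposited lists of annotated and of assembled (XLOC) rice lncRNAs with coordinates, exons, classes and 1 column per library. The unit is not named in the headers of the columns: FPKM was taken from a class name in the authors' deposited table and from the values. FPKM times merged exon length gave whole reads (within 0.05 reads, up to 200 reads) for 100% of 89437 single-exon values and 100% of 5027 member values, which also gave the depths. IRGSP-1.0 is the build, and TopHat2 and DESeq2 are tools, in the submitters' processing notes, without roles. Which program counted reads was not given in the sources used here. Per the labels' protocols, ribosomal RNA was depleted and libraries were strand-specific (dUTP). Coordinates are as deposited, on that build.

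The poly(A)+ leaf and long RNA panicle columns have uncertain headings, so 8 value columns were not used. One row per gene was kept. RNA kinds were compared with limma 3.58.1 in R 4.3.3 on log2(FPKM + 1), with a trended prior and condition as a block. The prior had a median of 187 degrees of freedom for poly(A)- and 23.4 for nuclear against poly(A)+ RNA, beside 6 residual. For nuclear against poly(A)- RNA it had 137 beside 7. The conditions are the pairing: the labels give each RNA kind for the same treatments and tissues. The fit was tested on simulated data. Stress and tissue comparisons used the size rule. Named genes are members only: up to 6 called per direction in each RNA comparison by adjusted p with one sign in all conditions, up to 4 per direction in each stress and in roots by size in poly(A)+ RNA and up to 4 in all 3 kinds, up to 3 per direction for roots against leaves, the 10 highest in poly(A)+ RNA, the 5 highest in small RNA, the 5 with most exons, the 3 longest spans and up to 5 overlaps on the other strand. XLOC_010147 and XLOC_075458 were named after their values were seen, to complete a count of 5. Members, lists and rules were chosen with earlier results of these data known. Alternatives covered the pseudocount, filters, centring, the block, the prior, single conditions and the choice of members.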

Additional observations from a re-analysis of the deposited data

Results flagged for a closer look

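Over all 283 members, 3 genes moved past the size rule in opposite directions in different kinds of RNA under the same contrast. The same count over all listed genes was not made, so this is no trait of the members. Only values past the rule both as deposited and after centring on the median of all genes were taken. Passing after centring was thus part of the choice. Each value is a log2 difference of FPKM + 1 between 1 library and 1 library, and the difference between the kinds was not tested.

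XLOC_066469 in heat was higher than in untreated seedlings by 1.92 in poly(A)+ RNA (19.7 against 4.50 FPKM) and by 2.15 in nuclear RNA (109 against 23.7 FPKM), and differed by -1.52 in poly(A)- RNA (59.2 against 172 FPKM). Over all genes at 1 FPKM the heat medians were -0.018 in poly(A)+, -0.32 in nuclear and 0.67 in poly(A)- RNA.

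XLOC_015085 in roots differed from untreated seedlings by -1.24 in poly(A)+ RNA (26.9 against 64.8 FPKM) and by 2.52 in poly(A)- RNA (1317 against 228 FPKM). XLOC_047886 did likewise, by -1.61 in poly(A)+ RNA (16.4 against 52.1 FPKM) and by 2.43 in poly(A)- RNA (532 against 98.0 FPKM). In nuclear RNA neither passed the size rule. Beside these values, root poly(A)- RNA was shifted upward over all genes at 1 FPKM, by a median of 0.99. The values of XLOC_047886 are uncertain, since XLOC_043005 overlaps its exons on the other strand.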

How the results depend on the processing

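With each library centred on its median, members called higher and lower became 10 and 17 for poly(A)- against poly(A)+ RNA, 17 and 25 for nuclear against poly(A)+ RNA, and 1 and 1 for nuclear against poly(A)- RNA, and the first 2 medians turned from -1.44 and -1.61 to 0.14 and 0.16. A filter of 1 FPKM in 0.5 of the tested libraries left 56, 51 and 2 lower calls, since fewer genes were tested. For nuclear against poly(A)- RNA a pseudocount of 0.1 gave 11 lower calls and no filter gave 0. Among members of 3 or more exons the shares lower were 43.8% and 50% of 16 tested genes in the first 2 comparisons. None was called higher in either. In nuclear against poly(A)- RNA only 1 such gene was tested, and it was not called. Leaving out 1 condition gave 80 to 95, 88 to 99 and 3 to 7 lower calls and 3 to 3, 1 to 1 and 0 to 0 higher calls, with 3 lower calls of nuclear against poly(A)- RNA without high light and without high salt. The fit without the replicate block, that is without the pairing by condition, changed no count: 88, 92 and 5 lower and 3, 1 and 0 higher. A prior without a trend and the XLOC list alone gave the same counts as well. Of 253 values of genes named in these tests 246 kept their call and none reversed. These genes were chosen as called with one sign in all conditions and by the smallest adjusted p. Kept calls and signs were therefore favoured by the choice and do not measure stability. The 7 lost values belong to XLOC_059947 and XLOC_015714 in nuclear against poly(A)- RNA, and the cause was not tested.

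In the stresses, counts are given as higher and lower for cold, drought, heat, high light, high salt and roots in turn, in poly(A)+ RNA. At 4-fold they were 2 and 6, 7 and 13, 1 and 8, 2 and 3, 1 and 18, and 7 and 14. At 5 FPKM they moved by over 1.5 times to 7 higher in cold, 26 lower in drought, 22 lower in heat, 17 lower in high light, 36 lower in high salt, and 19 higher and 16 lower in roots. A pseudocount of 0.1 gave 46 lower in cold, 30 higher in heat, and 14 higher and 53 lower in high light. Centring gave 32 and 11 in drought, 14 and 20 under high light, 12 and 16 under high salt, and turned the medians of drought and high salt to 0.12 and 0.085. In members of 3 or more exons the shares were 11.1% higher and 7.41% lower in cold, 3.70% higher in heat, and 0% higher under both high light and high salt. For roots against leaves, poly(A)- counts were 3 and 1 at 4-fold, 3 and 12 centred and 5 and 2 at 5 FPKM. Nuclear counts were 0 and 7 at 4-fold, 7 lower centred, and 1 and 6 at 5 FPKM. Of 118 values of named genes in these comparisons 75 moved by more than counting error and none reversed. These genes were chosen for the largest differences, so the lack of reversals does not measure stability. Members kept with mirrored loci, or called by Poisson intervals that do not overlap, gave the same counts within 1.5 times.

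Groups of 1 column leave stress and tissue differences without replicate error, and 122 of the 283 members passed the filter for the tests against poly(A)+ RNA.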

Other observations

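A stretch of chromosome 2 holds several members with high root levels. XLOC_037289 (6216254 to 6217208) and XLOC_037290 (6219323 to 6220503) lie 2115 nt apart on the minus strand, and XLOC_032576 (6258810 to 6260653) lies beyond them on the plus strand. In root poly(A)+ RNA they stood at 11.7, 30.6 and 10.4 FPKM. Untreated seedlings had 0.150, 10.4 and 0.427 FPKM, and drought 0.274, 0.966 and 0 FPKM. All 3 had their highest poly(A)+ value in roots. XLOC_032555, at 6145851 to 6146743 on the plus strand, differed from them, with 40.9 FPKM in roots and 44.3 FPKM untreated. These genes were looked at after their values were seen. In all, 17 members lay within 10000 nt of another member.

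XLOC_087853 was almost limited to roots in poly(A)+ RNA, with 9.84 FPKM there, 0.315 in heat, 0.0597 in high light and 0 in the other 4 libraries. In small RNA it was present in all 9 libraries, from 0.103 FPKM in panicles to 2.67 in high light, with 2.16 FPKM in roots.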
